A study of Caenorhabditis elegans with 4 samples.

Results

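The combined EFL-1 peak list, made by the authors from both ChIP replicates, held 847 peaks on chromosome IV out of 4966 on all nuclear chromosomes (17.1%). Members were all lines of that list on IV, with no choice by strength. EFL-1, a Caenorhabditis elegans transcription factor of the E2F family, was mapped by chromatin immunoprecipitation and sequencing (ChIP-seq) with, per the sample descriptions, a rabbit polyclonal antibody against the protein itself. The protocol text shared by all samples instead names antibodies against GFP and RNA polymerase II, and the descriptions were followed here. The animals were hermaphrodites of strain MT10430, labelled L1 26dC, and all of them carried lin-35(n745). Growth was at 20 °C per the labels' protocols, and the meaning of the tag 26dC is not given in the sources used here. There were 2 ChIP samples and 2 input samples. Replicates are numbered 1 and 2 by their sample titles, while the deposited lists of the same samples bear 2 and 3. The inputs are chromatin DNA set aside before immunoprecipitation, and they were not analysed here. No animals with intact lin-35 were sampled, so these peaks describe the mutant only. The larvae were whole animals, so the tissue in which a site was occupied cannot be told apart from these lists. Separate cultures are not stated for the ChIP samples, and differences between them may therefore be technical.

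E2F factors pair with a DP partner and bind promoters of genes for DNA replication and cell division. In the worm, EFL-1 and its partner DPL-1 belong to the DREAM complex, in which LIN-35, the homologue of the retinoblastoma protein, joins them to the MuvB proteins and holds target genes down. Worm autosomes have a central domain that is rich in conserved genes and recombines little, between arms that recombine more and hold more repeats. Chromosome IV is also known for broad stretches that carry most genes of the germline small RNAs called piRNAs. Which genes lay at the peaks was not analysed here, since the annotation at hand was of another genome build (WBcel235) than the peaks (WormBase WS220).

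Each replicate list gives a peak a score without a stated unit and a number, which was taken as the authors' rank and in which 1 is the strongest. On IV the score separated few of the strong sites. Of the 847 combined peaks, 795 had the top score in replicate 1 and 652 had it in replicate 2, and all combined peaks shared 1 score. The number is therefore the measure of strength used throughout, and within ties it rests on the authors' order alone. Replicate 1 held 3737 peaks on IV and replicate 2 held 3754. Reads per site and per sample were unknown, and no interval could be put on the strength of a single site.

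The strongest EFL-1 sites of chromosome IV were spread over its whole length and stood among the strongest peaks of both replicates. Their low numbers in the replicates follow in part from the choice by combined number, since the combined list was made from these replicates. The leading site, combined peak 3, lay from 12724574 to 12725044 in WS220 coordinates, near the right end of the centre. Replicate 1 numbered it 6 and replicate 2 numbered it 3, and at 471 bp it was among the 3 widest combined peaks of IV. The next site, combined peak 10, lay on the right arm from 15570713 to 15571125 and had number 18 in replicate 1 and number 7 in replicate 2. Combined peak 14, from 14463998 to 14464438, also on the right arm, had number 5 in replicate 1, the lowest of any IV site there, and number 18 in replicate 2. The replicates thus gave different orders to the top 3 sites, but both kept them within their first 18 peaks.

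Of the next 7 sites, 2 more lay near the right end of the chromosome. Combined peak 29 ran from 16995393 to 16995756 (replicate 1 number 44, replicate 2 number 25), and combined peak 39 from 17249694 to 17250035 (peaks 29 and 38). The left arm held combined peak 33 from 874675 to 875044 (peaks 21 and 41) and combined peak 42 from 3338702 to 3339099 (peaks 30 and 52). The centre held combined peak 38 from 6206390 to 6206762, whose numbers were the least alike of the 10, with 11 in replicate 1 and 61 in replicate 2. It also held combined peak 43 from 8869636 to 8870043 (peaks 40 and 45) and combined peak 44 from 12559020 to 12559410 (peaks 38 and 50). Over the 10 sites the numbers ran from 5 to 44 in replicate 1 (median 25) and from 3 to 61 in replicate 2 (median 39.5).

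Sites ranked 11 to 20 on IV continued this pattern. Over the 20 strongest, numbers reached 149 in replicate 1 and 136 in replicate 2, and all 20 had the top score in both lists. By position 7 lay on the left arm, 7 in the centre and 6 on the right arm, which hold 23.8%, 57.5% and 18.7% of all IV peaks. No test was made of this split of the 20. Combined peak 80, from 4049488 to 4049922, lay just inside the centre. Combined peak 101, from 1094181 to 1094524, and combined peak 90, from 15039501 to 15039861, were weaker in replicate 1 (peaks 149 and 135) than in replicate 2 (peaks 69 and 56). The peak just inside this set was combined peak 128 from 4749889 to 4750213, and the peak just outside it was combined peak 132 from 3294607 to 3294892. Widths of the 20 ran from 305 to 471 bp (median 365.5 bp).

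Some of the strong sites stood alone and others had a neighbour close by. For 7 of the 20 strongest sites the nearest other combined peak was over 10 kb away, against 221 of all 847. Combined peak 38 was the most isolated of the 20, with 49301 bp to its nearest neighbour, and combined peak 29 followed with 48430 bp. At the other end, combined peak 95, from 13240482 to 13240815, had another combined peak 861 bp away. No test was made of these distances.

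By strength, chromosome IV sites were not detectably different from the rest of the list. Of its peaks, 421 of 847 (49.7%) were in the stronger 50% of the combined list, that is, numbers up to 2483, against 2062 of 4119 peaks elsewhere (50.1%). The difference of -0.36 points did not pass a two-sided Fisher's exact test (p = 0.880, odds ratio 0.99, exact 95% interval 0.85 to 1.15). IV held 168 of the first 1000 combined peaks (16.8%, exact 95% interval 14.5 to 19.3%), 178 of peaks 2001 to 3000 (17.8%), 184 of peaks 3001 to 4000 (18.4%) and 147 of the last 966 (15.2%, 13.01 to 17.6%). Its share of the whole combined list is 17.1%, and its share of the nuclear extent is 17.4%. Among the 500 strongest combined peaks IV held 87 (17.4%). The median number of an IV peak was 2513, against 2481 elsewhere.

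**Figure D1:**
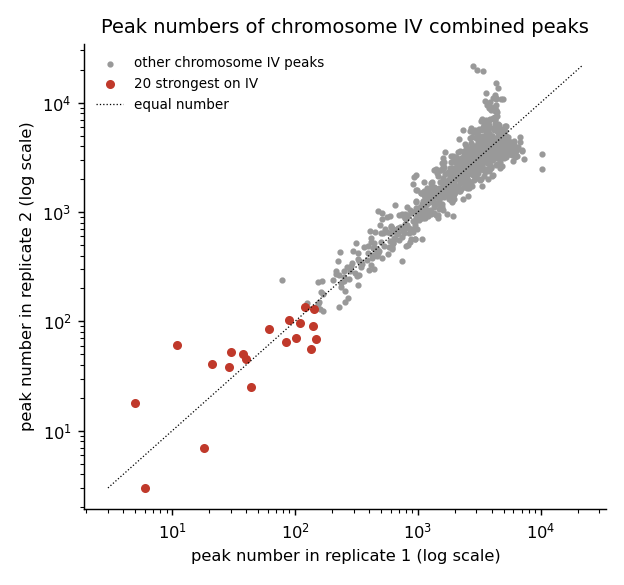
Peak number in replicate 1 (x axis, log scale) against peak number in replicate 2 (y axis, log scale) for the 845 chromosome IV combined peaks found in both lists; each point is a peak, the 20 strongest are in red and the dotted line marks equal numbers. The red points keep to the first 149 peaks of replicate 1 and the first 136 of replicate 2, and the widest departures from the line are weak peaks with high numbers in replicate 2. The red points were chosen from a list made from both replicates, so their low numbers follow in part from that choice.

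Both replicates carried nearly all chromosome IV sites. A replicate 1 peak overlapped 846 of the 847 by at least 1 bp (99.9%, exact 95% interval 99.3 to 99.997%), as over the whole list (99.9%), and a replicate 2 peak overlapped 846 (99.9%), against 99.7% over the whole list. This share follows from the way the list was made from the same samples and was not tested. The site with no replicate 1 partner was combined peak 4712, from 7344026 to 7344355, which was peak 5903 in replicate 2. The site with no replicate 2 partner was combined peak 3804, from 8431684 to 8431805, only 122 bp wide, which was peak 2516 in replicate 1 and lay 416 bp from another combined peak. Partners among the 4966 strongest of both lists were found for 709 IV sites (83.7%), close to the 83.4% of all combined peaks.

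The numbers in the replicates differed by a median of 389 over the 845 sites with both partners, and by at most 500 at 487 of them (57.6%). Spearman's rho between the replicates' numbers was 0.89 across these peaks, a description only, since the list was made from both replicates and its peaks share the 2 libraries. At 20 sites the numbers differed by more than 5000. Of these, 18 were weaker in replicate 2 and 2 were weaker in replicate 1. The widest gap was at combined peak 3629, which was weaker in replicate 2, where it was peak 21537, the highest number of any IV site there. The highest number in replicate 1 was 10184.

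Over the full replicate lists, peaks at combined sites included, no difference in agreement between IV and the other chromosomes was detected. Of all replicate 1 peaks on IV, 1895 of 3737 (50.7%) overlapped a replicate 2 peak, against 50.3% on the other chromosomes and 50.4% over all nuclear peaks (two-sided Fisher's exact test, p = 0.693). Of all replicate 2 peaks on IV, 1894 of 3754 (50.5%) overlapped a replicate 1 peak, against 49.7% elsewhere and 49.9% over all nuclear peaks (Fisher's exact p = 0.431). The odds ratios of IV to the other chromosomes were 1.01 (exact 95% interval 0.95 to 1.09) and 1.03 (0.96 to 1.10). By rank, all 168 IV peaks among the first 1000 of replicate 1 had a partner. The share was 162 of 173 at peaks 4001 to 5000 (93.6%), 76 of 158 at peaks 9001 to 10000 (48.1%) and 36 of 182 at peaks 19001 to 20000 (19.8%). In replicate 2 the same steps gave 100%, 92.4%, 45.4% and 22.1%. These steps were not counted over all nuclear peaks, so the fall with rank cannot be read as particular to IV. On the right arm 44.4% of replicate 1 peaks and 45.04% of replicate 2 peaks recurred, against 53.6% and 52.0% in the centre. The left arm stood between them, at 49.5% and 51.4%. These shares were not tested against each other. Among IV peaks that were in the strongest 4966 of both replicates, 709 of 711 replicate 1 peaks lay at a combined peak and 2 did not.

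Along the chromosome, EFL-1 sites were about as dense on the left arm as in the centre and sparser on the right arm. The centre was taken as 4 to 13 Mb, in round figures, and the extent of IV as the highest peak end in any list, 17489442 bp. The centre held 487 peaks (54.1 per Mb, exact Poisson 95% interval 49.4 to 59.1), the left arm 202 (50.5 per Mb, 43.8 to 58.0) and the right arm 158 (35.2 per Mb, 29.9 to 41.1). These intervals cover counting error only, since neighbouring peaks are not independent.

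The centre thus held 57.5% of the peaks on 51.5% of the extent, a ratio of 1.12 to its length share (exact 95% interval 1.05 to 1.18; two-sided exact binomial test, p = 0.000449). Within the stronger 50% of the list this call was lost (237 of 421 peaks, ratio 1.09, 0.999 to 1.19, exact binomial p = 0.0510), and among the first 1000 combined peaks the centre held 87 of 168 (ratio 1.01, 0.85 to 1.16). The left arm held 202 of the 360 arm peaks (56.1%, exact 95% interval 50.8 to 61.3%) on 47.1% of the arms' length, a ratio of 1.19 (1.08 to 1.30; two-sided exact binomial test, p = 0.000709), while against the centre its count did not depart from its length (202 of 689 peaks, ratio 0.95, 0.84 to 1.07, exact binomial p = 0.433). The comparisons with the left arm were chosen after the counts had been seen. All these binomial tests treat peaks as independent, which neighbouring peaks are not, so their p-values and intervals cover counting error only. Between the arms, the stronger 50% of the list gave 111 peaks on the left and 73 on the right (ratio 1.28, 1.12 to 1.43). In the weaker 50%, 91 against 85 did not pass (ratio 1.10, 0.94 to 1.26, exact binomial p = 0.228). The 2 ratios were not tested against each other.

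**Figure D2:**
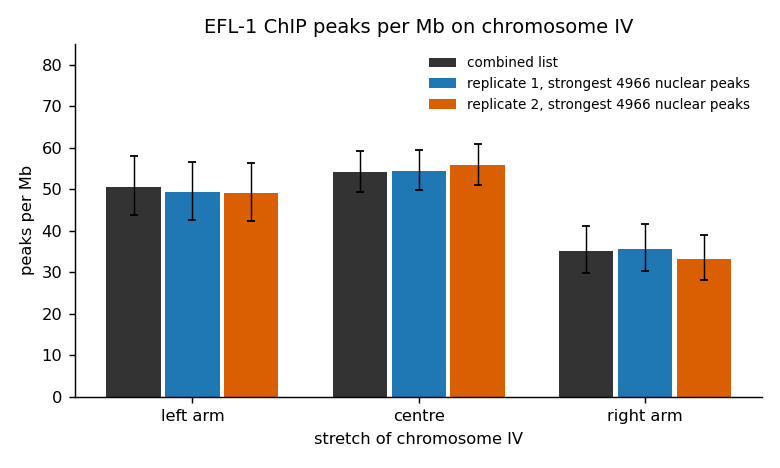
Peaks per Mb (y axis) on the left arm, centre and right arm of chromosome IV (x axis) in the combined list and among the strongest 4966 nuclear peaks of each replicate; bars are densities and error bars exact Poisson 95% intervals, counting error only. In all 3 lists the right arm bar, between 33.2 and 35.6 per Mb, is the lowest.

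The same order appeared among the strongest 4966 peaks of each replicate, whose lists are not independent of the combined one. Among the strongest peaks of replicate 1, densities were 49.3 per Mb on the left arm, 54.4 in the centre and 35.6 on the right arm, and in replicate 2 they were 49.0, 55.9 and 33.2. In the full lists the right arm was again the lowest, at 169.5 per Mb in replicate 1 and 170.6 in replicate 2, while the left arm and centre stood at 229.5 and 228.7 in replicate 1 and at 220.0 and 234.2 in replicate 2. In 500 kb bins of the combined list the left arm averaged 25.3 ± 5.70 peaks (SD, n = 8 bins), the centre 27.1 ± 6.05 (SD, n = 18 bins) and the right arm 17.6 ± 6.17 (SD, n = 9 bins). Bins of the right arm ran from 9 (16.5 to 17 Mb) to 27 (13 to 13.5 Mb and 17 to 17.5 Mb), so its inner and outer ends reached the level of the centre. The centre itself was uneven, with 37 peaks from 4 to 4.5 Mb and 16 from 5 to 5.5 Mb.

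With both arms pooled, sites on the arms were not stronger than those in the centre beyond counting error. In the stronger 50% of the list were 184 of 360 arm peaks (51.1%) and 237 of 487 centre peaks (48.7%), a difference of 2.45 points (two-sided Fisher's exact test, p = 0.488, odds ratio 1.10, exact 95% interval 0.83 to 1.46). Among the 500 strongest combined peaks were 45 arm peaks (12.5%) and 42 centre peaks (8.62%), which did not pass either (Fisher's exact p = 0.0682, odds ratio 1.51, 0.95 to 2.42). The median number was 2290.5 on the left arm, 2561 in the centre and 2664 on the right arm. In the stronger 50% were 111 of 202 left arm peaks and 73 of 158 right arm peaks. Pooling can thus hide a difference of either arm from the centre, and the arms were not tested apart for strength.

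With each chromosome divided into 3 equal parts, the middle part of IV held 326 of 847 peaks (38.5%). The middle shares were 39.8% on I, 38.9% on II, 39.2% on III and 41.4% on V, and none of these passed a two-sided Fisher's exact test against IV with Benjamini-Hochberg adjustment over the 5 chromosomes (adjusted p from 0.644 to 0.881). The widest of these differences, to V, was -2.87 points (odds ratio 0.89, exact 95% interval 0.72 to 1.09). Among the first 1000 combined peaks the differences were -6.23 points to I, 2.38 to II, -9.28 to III and -8.36 to V. None of these passed either (adjusted Fisher's exact p from 0.312 to 0.725). In the full replicate lists, however, the middle share of IV was lower than that of V in replicate 1 (-5.08 points, adjusted Fisher's exact p = 2.79e-05) and in replicate 2 (-4.42 points, adjusted exact p = 0.000351). In replicate 1 it was also lower than that of I (-3.51 points, adjusted exact p = 0.00443) and II (-3.06 points, adjusted exact p = 0.00909), calls that replicate 2 did not give. On X the middle held 30.6%, below IV by 7.93 points (odds ratio 1.42, exact 95% interval 1.13 to 1.79, adjusted Fisher's exact p = 0.0101). This call was lost with fewer peaks, both in the stronger 50% of the list (7.44 points, adjusted exact p = 0.229) and in the weaker 50% (8.33 points, adjusted exact p = 0.0789). Among the first 1000 combined peaks the gap to X was 7.36 points, which did not pass either (adjusted exact p = 0.434). In the full replicate lists the call held but the gap to X was smaller. It was 3.40 points in replicate 1 (adjusted exact p = 0.00495) and 2.87 points in replicate 2 (adjusted exact p = 0.0298). The outer parts of IV were unequal, with 298 peaks on the left and 223 on the right (57.2% left, 52.8 to 61.5%; two-sided exact binomial test adjusted over 6 chromosomes, p = 0.00350). This comparison was added after the counts had been seen, and its test too treats peaks as independent. Unequal outer parts were not particular to IV: chromosome II held 201 on the left and 307 on the right (adjusted exact p = 1.77e-05) and III held 269 and 332 (adjusted exact p = 0.0228).

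**Figure D3:**
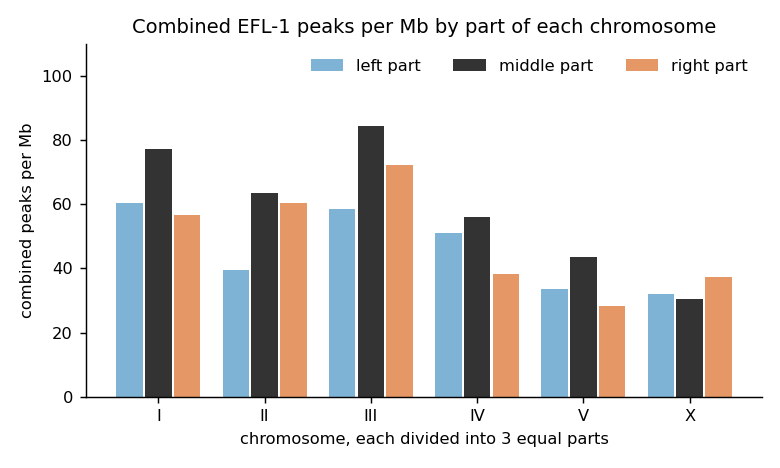
Combined EFL-1 peaks per Mb (y axis) in the left, middle and right of 3 equal parts of each chromosome (x axis); bars are densities of the combined list, without replicates and without error bars. On IV the bars stand at 51.1, 55.9 and 38.3 per Mb, with the lowest on the right, whereas on II the lowest is on the left at 39.5 per Mb.

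The densest 100 kb window of IV, from 2.6 to 2.7 Mb on the left arm, held 18 combined peaks where the mean window held 4.84 ± 2.86 (SD, n = 175 windows). This was also above the densest window of every other chromosome, where the highest counts ran from 10 on X to 17 on I. The window was singled out by its count, so the excess is a description without a test. Within IV the excess does not rest on where the windows begin, since a 100 kb stretch from the site centred at 2599836 held 19. The comparison with other chromosomes used fixed windows only. The window before it held 1 peak and the window after it held 7. A stretch without any combined peak, from 2495455 to 2599688, ended right before it.

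The weakest peaks made up a larger share of this window than of IV, while its ends were marked by strong sites. At its left end stood combined peak 125, from 2602001 to 2602319, with number 121 in replicate 1 and 136 in replicate 2. At its right end stood combined peak 145, from 2676312 to 2676639 (peaks 154 and 145), with combined peak 650 beside it from 2677752 to 2678023 (peaks 656 and 652). In all 4 of the 18 were among the first 1000 combined peaks, where 168 of all 847 IV peaks stood (19.8%). The site not yet named was combined peak 554 from 2641016 to 2641285 (peaks 592 and 539). The stronger 50% of the list held 8 of the 18, and 421 of all 847 (49.7%). By contrast, 8 of the 18 had numbers over 4000 (44.4%), against 17.4% of all IV peaks. The median number was 3445.5 in the window and 2513 over IV.

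Many of the weak peaks lay in tight groups. From 2639740 to 2643074 there were 4 peaks in a row with gaps of at most 1 kb, combined peaks 4263, 554, 4363 and 4583, and a second such row of 4 ran from 2664431 to 2666965 with combined peaks 4797, 4677, 4493 and 3787. These are the only rows of 4 on IV. At some of these weak sites the replicates' numbers lay far apart: combined peak 4363 had number 3773 in replicate 1 and 8961 in replicate 2, and combined peak 4677 had 4151 and 7213. The commonest width of the combined list, 330 bp, was shared by 10 of the 18.

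**Figure D4:**
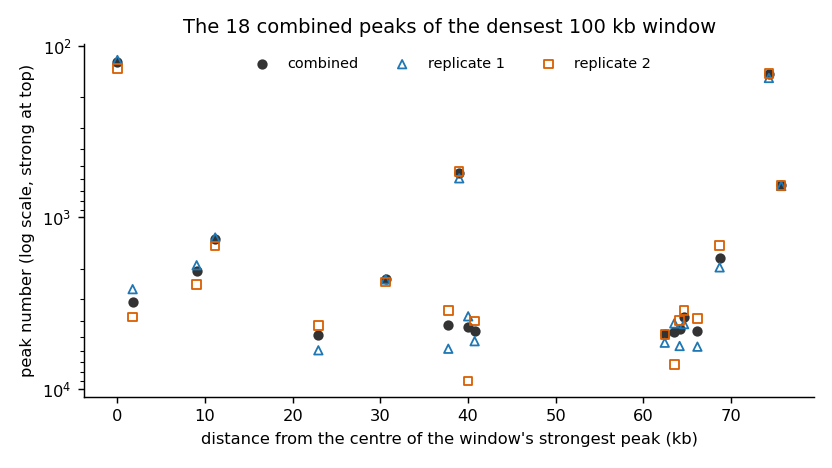
Peak number (y axis, log scale, strong at the top) in all 3 lists for the 18 combined peaks of the densest window, against distance in kb from the centre of its strongest site (x axis). Strong sites stand at both ends and near 40 kb, and the weaker peaks gather beside the middle site and in a group past 60 kb.

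The window had the highest count of IV among strong replicate peaks, level with another window in replicate 1, but not in the full replicate lists. Of each replicate's strongest 4966 nuclear peaks, 13 in replicate 1 and 17 in replicate 2 lay in it. In replicate 1 the window from 4.7 to 4.8 Mb held as many, and in replicate 2 no other window did. Over the full lists it held 45 and 37 peaks, which put it at place 2 among the windows of IV in replicate 1 and at place 5 in replicate 2. The highest counts, 53 and 43, were both in the window that began at 4 Mb. In the stronger 50% of the combined list the window held 8 peaks, the highest count on IV, which the window from 0.8 to 0.9 Mb reached too. Of its replicate peaks, 32 of 45 in replicate 1 (71.1%) and 30 of 37 in replicate 2 (81.1%) overlapped a peak of the other list. Over all of IV these shares were 50.7% and 50.5%. In each replicate list 19 of the window's peaks lay at combined peaks, nearly all of which have partners in both lists. A higher share thus follows in part from the choice of the window, and no test was made of it.

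Elsewhere on IV, sites within 1 kb of each other were common but groups were small. Of the 847 peaks, 169 (20.0%) stood in 77 rows with gaps of at most 1 kb, of which 64 were pairs, 11 were rows of 3 and 2 were the rows of 4 above. Among the rows of 3, the row from 8431684 to 8433101 held combined peak 191 and the row from 14070223 to 14072279 held combined peak 140. Neighbouring peaks lay within 1 kb in 10.9% of cases on IV, and in 7.22% (V) to 10.1% (II) of cases elsewhere. The median gap between neighbours was 10244 bp on IV, between 7979 bp on III and 17463 bp on X.

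Long stretches of IV had no combined peak, and they took up more of the right arm than of the left arm or the centre. There were 18 stretches over 100 kb, which summed to 2656 kb, or 15.2% of the chromosome. They made up 5.57% of the left arm (2 stretches), 13.98% of the centre (9) and 26.2% of the right arm (7). Chromosomes I, II and III had 6, 11 and 4 such stretches (3.46 to 8.75% of their extent), and V and X had 41 and 34 (31.3% and 25.8%), so that IV stood between these groups. No test was made of the stretches, whose number falls as peaks become denser.

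The longest stretch ran from 15697037 to 15931788 (234.8 kb) on the right arm, between combined peaks 1388 and 4956. Next came 4881047 to 5083765 (202.7 kb) in the centre and 16181252 to 16382250 (201.0 kb) on the right arm. They were followed by 10504196 to 10695782 (191.6 kb) in the centre and 16663825 to 16845405 (181.6 kb) on the right arm. The peaks that bordered such stretches varied in strength. A stretch of 158.3 kb at the right end of the centre, from 12855015 to 13013294, lay between combined peaks 670 and 4879. On the right arm combined peaks 1247 and 559 bordered a stretch of 154.2 kb from 16502132 to 16656283. Whether bordering peaks differ in strength from other IV peaks was not tested.

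Replicate peaks were also sparse in these stretches, although not absent. The longest stretch held 30 replicate 1 peaks, of which 7 overlapped a replicate 2 peak, and 23 replicate 2 peaks. The stretch from 16663825 held 5 and 11. Over all 18 stretches there were 104.3 replicate 1 peaks and 103.2 replicate 2 peaks per Mb. In the rest of IV, peaks that lay at no combined site numbered 173.7 and 174.8 per Mb. In 17 of the 18 stretches the replicate 1 density was below that of the rest, and likewise in 17 of 18 for replicate 2. The exceptions were the stretch from 14656963 in replicate 1 (178.7 per Mb) and the stretch from 4537961 in replicate 2 (239.5 per Mb). The stretches were picked for their lack of combined peaks, so this contrast was not tested.

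**Figure D5:**
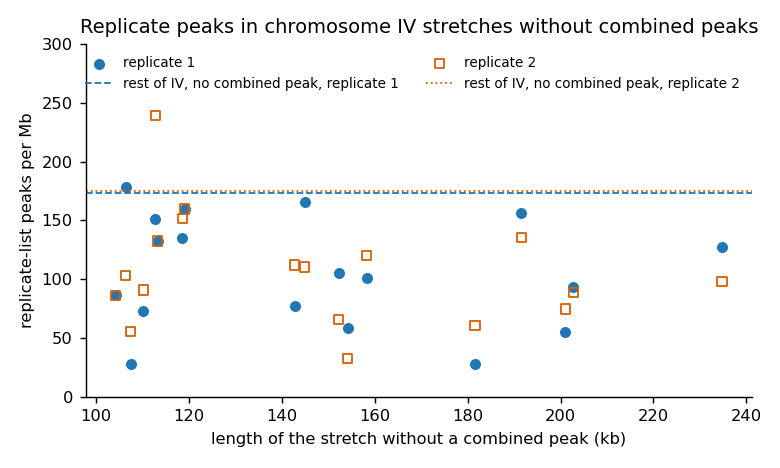
Replicate-list peaks per Mb (y axis) in each of the 18 stretches of over 100 kb without a combined peak, against the length of the stretch in kb (x axis), for replicate 1 (filled circles) and replicate 2 (open squares); lines give the density, in the rest of chromosome IV, of replicate peaks that overlap no combined peak. Points run from 27.5 to 178.7 per Mb in replicate 1 and from 32.4 to 239.5 in replicate 2, and all but 1 per replicate lie below its line.

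The share of IV peaks with the list's commonest width grew from strong to weak peaks. Peaks of IV were 82 to 527 bp wide, with a median of 330 bp, the width that 447 of 847 (52.8%) had exactly, as did 52.8% of the whole list. That share was 1.79% among IV peaks of the first 1000, 60.7% at peaks 2001 to 3000 and 99.3% over the last 966. The median width itself was 282 bp over the first 1000, 188.5 bp at peaks 1001 to 2000 and 330 bp in each later step. These steps were counted on IV only. The width of 330 bp was also that of 93.7% of all replicate 2 peaks, and 91.4% of all replicate 1 peaks had 324 bp. Whether such a shared width measures the extent of a site is not given in these sources. Together the IV peaks covered 233.5 kb, or 1.33% of the chromosome.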

How the data were processed

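The deposited files are peak lists of the 2 EFL-1 ChIP samples and 1 list that combines them, with WS220 as genome build per the file headers. Per the lines' second field, peaks came from the SPP caller by way of IDR (irreproducible discovery rate), which retains peaks of like rank across replicates. The aligner, all versions and thresholds, the role of the inputs and the way of combining are not given in these sources. The score is as the authors deposited it, with no stated unit. It never rose with the peak number by more than 8.68e-05 (replicate 1) or 0.000114 (replicate 2), so the number was taken as rank. Among 854 IV peaks of replicate 1 and 650 of replicate 2 tied at the top score this could not be checked.

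Peaks were placed by their centre and counted as deposited. An overlap of 1 bp or more made peaks shared, and a peak with several partners took the lowest number. Intervals are exact 95% (Clopper-Pearson, or Poisson for densities). Intervals and tests treat peaks as independent, which neighbouring peaks are not. Python 3.11.15, numpy 2.4.6, pandas 2.3.3, scipy 1.17.1 and matplotlib 3.10.9 were used, and counting and tests were first tested on simulated lists. Members and comparisons were chosen with earlier results of these data known. Sites were named by a rule: the 20 strongest, the densest 100 kb window, the 5 longest stretches without a peak, and peaks that lack a replicate partner; others, such as combined peaks 3629, 670, 1247, 559, 191 and 140, were picked after their values were seen. Gene lists and sequence motifs were planned only for a matching build and were not analysed here, so no sequence is shown. Alternatives are given at the end.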

Additional observations from a re-analysis of the deposited data

How the results depend on the processing

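Of 68 alternative values for 13 results, 53 kept direction and side of the threshold, 4 lost a call, 4 gained one, 5 turned direction and 2 moved. The centre's excess was lost in the stronger 50% of the list (ratio 1.09, exact p = 0.0510). The left arm's excess over the right was lost in the weaker 50% (ratio 1.10, exact p = 0.228). The gap to X was lost in the stronger 50% (7.44 points) and the weaker 50% (8.33 points). Each lost call uses fewer peaks, and the cause was not tested. The first 1000 combined peaks were not counted among the 68 values for these results. There the centre ratio was 1.01 (exact binomial p = 0.939), and the middle of 3 equal parts had a ratio of 0.98. The gap to X was 7.36 points (adjusted Fisher's exact p = 0.434). The left arm's excess still passed there (ratio 1.28, exact binomial p = 0.0190). The gained calls came from the longer full lists, in the middle share of IV minus V (-5.08 points in replicate 1, -4.42 in replicate 2), minus I (-3.51, replicate 1) and minus II (-3.06, replicate 1). Without a replicate, that is, in the other replicate's strongest peaks, the centre ratio was 1.12 to 1.15, the left arm ratio 1.17 to 1.21 and the gap to X 7.46 to 9.08 points. The full lists kept the call for X with a smaller gap, 3.40 points in replicate 1 and 2.87 in replicate 2. The 5 turns were in differences that passed no test in the combined list: IV minus II in middle share, -0.38 points, became 3.43 in the stronger 50% and ran from -0.89 to 0.22 without a replicate, IV minus III became 0.61 and IV minus V 0.090 in the weaker 50%, and IV minus the rest in strong share, -0.36 points, ran from -0.28 to 0.36 without a replicate. Under a reciprocal overlap of 50%, 90.1% of IV combined peaks had a replicate 1 partner and 84.5% a replicate 2 partner. Over the whole combined list these shares were 91.8% and 84.8%. Counting partners by centres at most 200 bp apart gave 99.8% and 99.5% on IV, against 99.8% and 99.4% over the whole list. The left arm comparison, the weaker 50% of the list and the full replicate lists were chosen after the data were seen. Alternatives for genes and motifs were not run for want of a matching build. No paired analysis was possible because no values of the inputs, which carry the same numbers, were used here. Without read depths, whether a weak peak was missed in a replicate cannot be told.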
